A study of Homo sapiens with 2 samples.

Results

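The alpha and beta globin loci were described through the acetylated peaks around 10 globin genes. The members are the peaks of both lists lying within 100 kb of a globin gene record in hg38, a rule that uses position and no peak value. There were 20 such peaks, 15 of the 19671 peaks in the ERG library and 5 of the 9161 in the Vector library. Both libraries are H3K27ac chromatin immunoprecipitations, which pull down DNA around histone H3 acetylated at lysine 27, a mark of active promoters and enhancers. They come from F36P, an established human erythroleukaemia line, given MSCV-PIG plasmids (MSCV being a retroviral vector) and selected for 4 days with 1 µg/ml puromycin. The ERG library (genotype label ERG overexpression) carries the ETS factor ERG as AM-ERG, where the labels do not say what AM means, and the Vector library (genotype label WT) the plasmid without it. Each group held 1 library, so there was no replicate check and no test between groups, and all intervals cover counting error only.

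Haemoglobin is built from alpha-like and beta-like chains around heme. In the beta cluster the genes stand in the order in which they are used in development, embryonic first. In the alpha cluster the embryonic HBZ likewise stands before the adult HBA2 and HBA1. The beta cluster holds HBE1 (embryonic), HBG2 and HBG1 (fetal), HBD (a minor adult chain) and HBB (adult), and depends on a locus control region upstream of HBE1. The alpha cluster holds HBZ (embryonic), HBM (mu, of low output), HBA2 and HBA1 (adult alpha) and HBQ1 (theta). Known enhancers of this cluster, though not all of them, lie inside the neighbouring gene NPRL3. HBG1 and HBG2 are near-identical copies, as are HBA1 and HBA2, and the sources used here do not say how reads that map equally well to both copies were treated. Values at these genes are therefore uncertain.

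Promoter sequence is given as a description, and its part in the peaks was not tested. RefSeq promoter windows (250 bases before to 50 after a start site, GRCh38.p14) were matched for 2 of the 10 globin genes, HBD and HBM. The 250 bases before the start are shown for these, for NPRL3 and MPG, whose windows met an ERG-library peak only, and for LUC7L and FAM234A, whose windows met a peak in both. They lie at chr11:5234484-5234733 (HBD, minus strand), chr16:165728-165977 (HBM, plus), chr16:138674-138923 (NPRL3, minus), chr16:77975-78224 (MPG, plus), chr16:229450-229699 (LUC7L, minus) and chr16:234571-234820 (FAM234A, plus). Each reads 5′ to 3′ on the strand of its gene, and capitals mark matches on either strand to searched letters. These were AGATAA and, as the other GATA form, TGATAA. For the ETS family, to which ERG belongs, they were CGGAAG and, as the other form, AGGAAG. The CACCC letters known from KLF-bound promoters, the CCAAT box and the TATAAA box were searched as well, and a base could belong to more than 1 match.
HBD: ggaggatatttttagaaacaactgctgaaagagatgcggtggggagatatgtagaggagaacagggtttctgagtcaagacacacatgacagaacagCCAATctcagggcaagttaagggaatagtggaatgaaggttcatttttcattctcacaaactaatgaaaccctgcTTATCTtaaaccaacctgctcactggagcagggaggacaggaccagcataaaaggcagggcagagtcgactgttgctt
HBM: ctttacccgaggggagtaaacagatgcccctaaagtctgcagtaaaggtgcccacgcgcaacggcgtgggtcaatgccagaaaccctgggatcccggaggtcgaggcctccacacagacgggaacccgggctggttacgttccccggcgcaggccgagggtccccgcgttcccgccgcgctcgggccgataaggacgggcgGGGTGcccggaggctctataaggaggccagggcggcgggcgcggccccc
NPRL3: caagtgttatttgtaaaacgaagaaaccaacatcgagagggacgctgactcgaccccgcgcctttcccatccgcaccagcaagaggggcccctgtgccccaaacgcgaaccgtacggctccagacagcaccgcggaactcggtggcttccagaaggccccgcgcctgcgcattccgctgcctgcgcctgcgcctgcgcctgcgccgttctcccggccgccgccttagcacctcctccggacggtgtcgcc
MPG: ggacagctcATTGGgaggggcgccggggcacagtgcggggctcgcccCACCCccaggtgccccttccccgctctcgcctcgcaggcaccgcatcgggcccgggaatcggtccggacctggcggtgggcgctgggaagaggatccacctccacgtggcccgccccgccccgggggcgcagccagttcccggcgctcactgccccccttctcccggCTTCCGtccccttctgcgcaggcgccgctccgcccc
LUC7L: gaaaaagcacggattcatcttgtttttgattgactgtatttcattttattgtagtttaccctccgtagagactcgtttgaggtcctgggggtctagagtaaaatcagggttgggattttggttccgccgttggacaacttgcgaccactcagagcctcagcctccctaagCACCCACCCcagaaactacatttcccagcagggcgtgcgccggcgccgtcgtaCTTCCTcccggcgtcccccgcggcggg
FAM234A: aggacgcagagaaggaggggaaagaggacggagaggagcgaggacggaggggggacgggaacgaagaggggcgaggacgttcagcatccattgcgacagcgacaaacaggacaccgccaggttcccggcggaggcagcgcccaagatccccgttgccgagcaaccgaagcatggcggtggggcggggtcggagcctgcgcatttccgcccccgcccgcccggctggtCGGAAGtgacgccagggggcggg

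The HBD and HBM promoters met no peak in either library. HBD, with 45.2% G and C and 2 CpG pairs, held 1 GATA match and 1 CCAAT match, and HBM, with 69.2% and 27 CpG pairs, held 1 CACCC match. NPRL3 (66.4%, 29 CpG pairs) held none of the searched letters. MPG held 1 ETS, 1 CACCC and 1 CCAAT match, LUC7L 1 ETS and 2 overlapping CACCC matches, and FAM234A 1 ETS match. HBM, without a peak, thus had as many CpG pairs as MPG, which met one, and over all windows the median was 23 pairs in those with an ERG-library peak and 5 in the others. Of 35116 RefSeq windows, 14.6% held a GATA match in these 250 bases, 40.8% an ETS match, 54.7% a CACCC match, 32.0% a CCAAT match and 10.7% a TATAAA match. A match gives letters only. Over all windows, 28.3% met an ERG-library peak and 15.4% a Vector-library peak.

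The beta globin locus carried 6 ERG-library peaks over 2833 bp and 2 Vector-library peaks over 944 bp, on chromosome 11 between 5125464 and 5369945. Both of the latter had an ERG-library counterpart, and 4 ERG-library peaks stood alone. Peaks were quantified by the fragments at the summit, recovered from the deposited fold and p-value, and by the local background that the peak caller assigned to that position. The lowest background of each list stood for the genome-wide level, with 2.31 fragments for ERG and 1.60 for Vector, and their ratio of 1.44 served as the relative depth. All 8 peaks lay between a position just outside the far end of HBB and a point 11.4 kb beyond the HBE1 end, and none near the 7 olfactory receptor genes that flank the cluster in this window. The nearest peak outside lay 414 kb from the cluster in the ERG library and 617 kb in the Vector library.

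**Figure D1:**
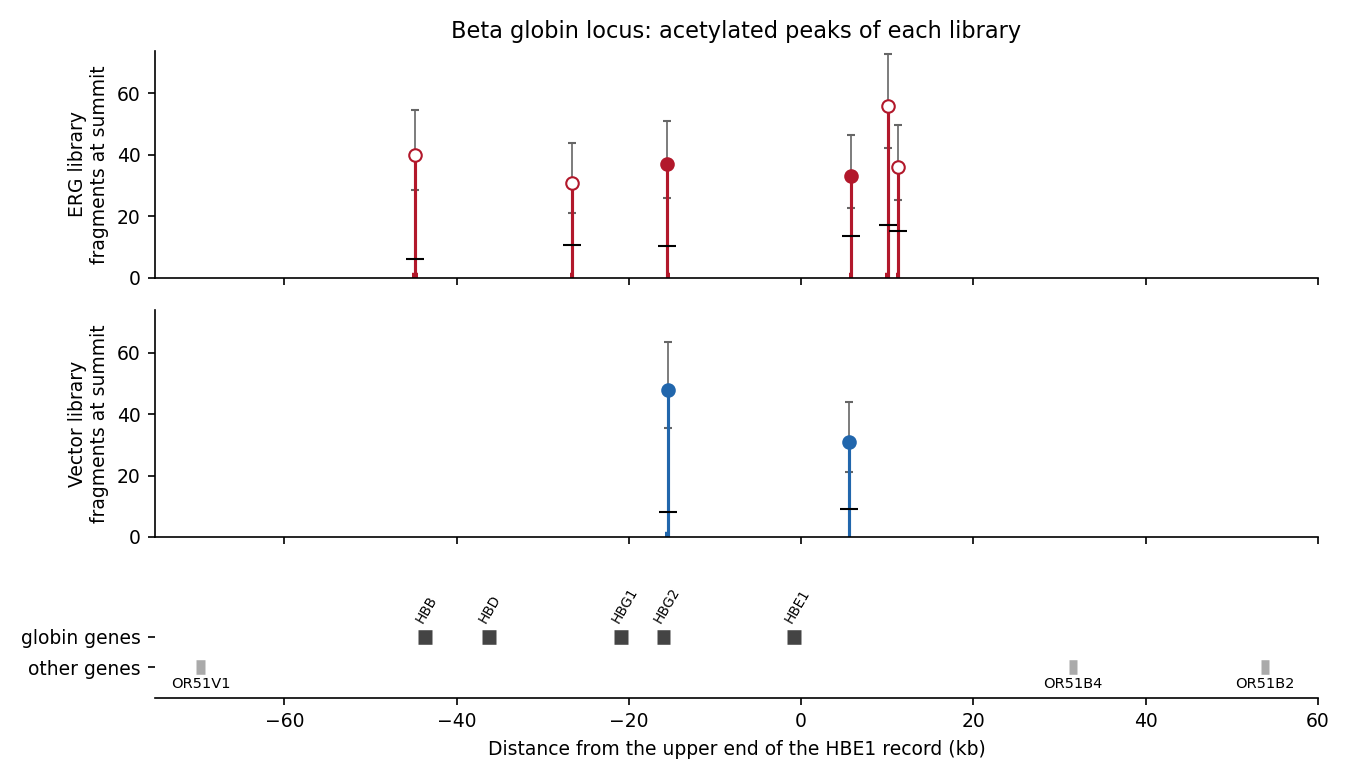
Peaks in the central part of the beta globin locus, by distance in kb from the upper end of the HBE1 record (x) and fragments at the summit (y), for the ERG library (top) and the Vector library (middle), with gene records below. Filled circles are peaks shared by the libraries and open circles unshared ones, grey bars are exact 95% Poisson intervals, and black dashes are the local background. The Vector library has its higher peak, 48 fragments, at HBG2, where the ERG library has 37, while the ERG library has its highest, 56, upstream of HBE1.

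HBG2 was the beta-like gene with a peak at its own record in both libraries. The Vector-library peak, at 5254163 to 5254747, had 48 fragments at the summit (95% interval 35.4 to 63.6) over a background of 8.09. The ERG-library peak, at 5254242 to 5254712, had 37 (26.05 to 51.0) over 10.5. Both lie within the record of HBG2 (5253188 to 5254781), at its upper end. The beta-like genes are known to share a direction, which the RefSeq window of HBD gives as the minus strand, so this end is the start side of HBG2. The summits were 130 bp apart. The library with the lower genome-wide background thus had the higher fragment number. The ratio of ERG to Vector fragments was 0.771 (0.488 to 1.21), or 0.534 (0.338 to 0.837) after division by the relative depth. Within its own list the peak stood at percentile 83.9 by the authors' score in the Vector library and 40.3 in the ERG library.

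HBB, the adult beta gene, met a peak only in the ERG list, at 5224793 to 5225467. It had 40 fragments at the summit (28.6 to 54.5) over a background of 6.16 and stood at percentile 69.3 of its list. It met the record of HBB (5225464 to 5227071) by its last bases, at the lower end, which is the far end from the start in the shared direction. An enhancer is known to lie downstream of HBB, and its position was not used here. The nearest Vector-library peak was 27.1 kb from HBB.

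HBD, HBG1 and HBE1 had no peak within 1 kb of either end in either library. The lists cannot show at this depth that these genes lacked acetylation. How reads common to HBG1 and HBG2 were placed is unknown, so the difference between these copies is uncertain. The nearest ERG-library peaks were 7.37 kb from HBD, 4.39 kb from HBG1 and 5.59 kb from HBE1, and the nearest Vector-library peaks 19.7, 4.31 and 5.44 kb. Between HBD and HBG1, an ERG-library peak at 5243164 to 5243538, with 31 fragments (21.1 to 44.0) over 10.6, lay inside the record of HBBP1, a globin pseudogene. The Vector library had no peak there.

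Upstream of HBE1, on the side of the locus control region, the ERG library had 3 peaks and the Vector library 1. The nearest to the gene was shared. It stood 5.59 to 5.89 kb above the HBE1 end in the ERG library (5275532 to 5275839, 33 fragments, 22.7 to 46.3, over 13.5). In the Vector library it stood at 5.44 to 5.80 kb (5275388 to 5275746, 31 fragments, 21.1 to 44.0, over 9.07). The fragment numbers were thus nearly equal although the genome-wide background was higher in the ERG library. The ratio after depth was 0.737 (0.438 to 1.25), whose interval includes 1. The others were in the ERG library alone, at 9.74 to 10.4 kb (5279681 to 5280312, 56 fragments, 42.3 to 72.7, over 17.0) and at 10.99 to 11.4 kb (5280932 to 5281303, 36 fragments, 25.2 to 49.8, over 15.4). The former was the highest peak of the beta locus in fragments. No gene record lies under these 3 positions.

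The alpha globin locus, on chromosome 16 from 52644 to 281179, carried 9 ERG-library peaks over 6095 bp and 3 Vector-library peaks over 1601 bp. All 3 Vector-library peaks overlapped ERG-library peaks, and 6 ERG-library peaks stood alone. The shared ones lay at HBQ1 and downstream of it. On the NPRL3 side of HBZ, where the known enhancers lie, every peak was in the ERG library. The farthest member was 74.2 kb from the cluster and the nearest peak outside the window 134 kb, both in the ERG library.

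**Figure D2:**
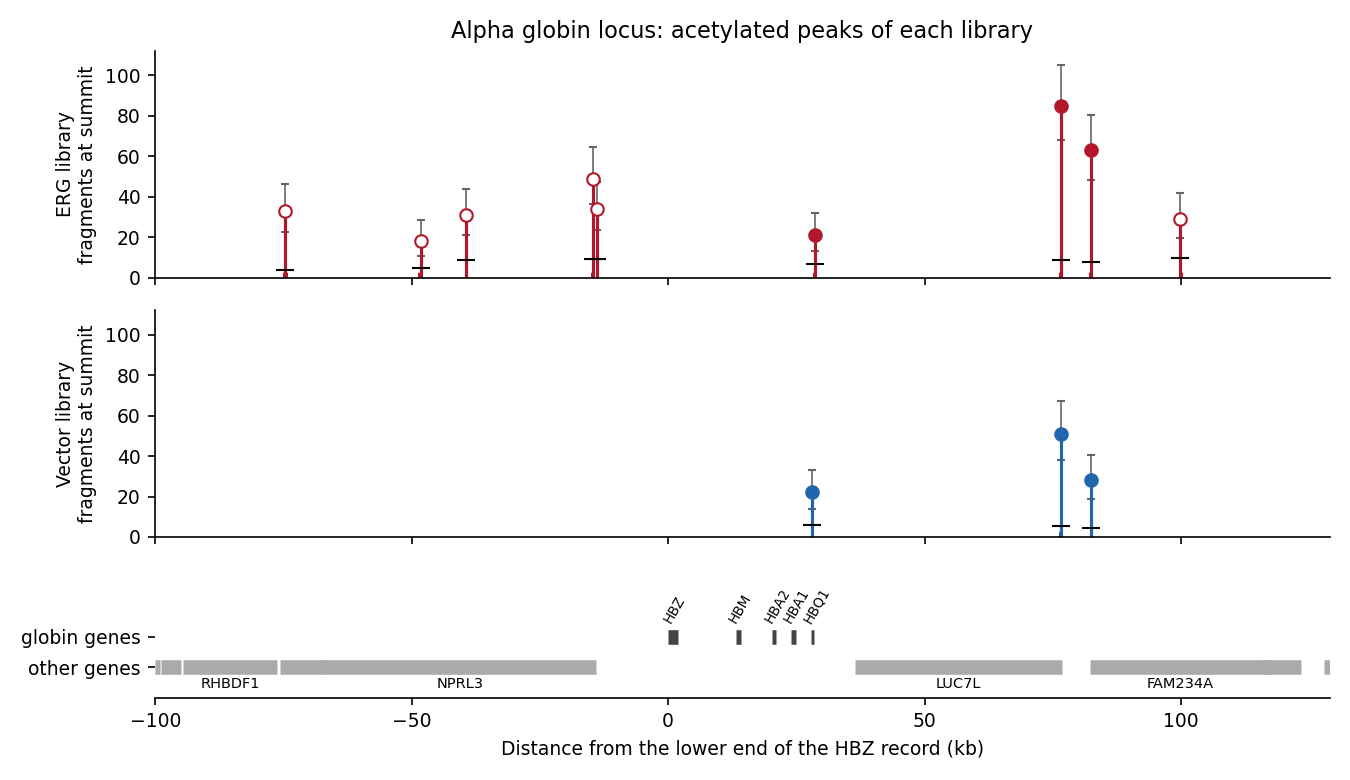
Peaks of the alpha globin locus, by distance in kb from the lower end of the HBZ record (x) and fragments at the summit (y), drawn as for the beta locus: ERG library on top, Vector library in the middle, shared peaks filled, unshared ones open, 95% Poisson intervals in grey and local background as black dashes. The 5 ERG-library peaks on the lower side of HBZ have no Vector-library counterpart, while the peaks at HBQ1, LUC7L and FAM234A appear in both.

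HBQ1 was the alpha-like gene with a peak at its record, in both libraries. In the Vector library it ran from 180461 to 180912, inside the record (180459 to 181179), with 22 fragments at the summit (13.8 to 33.3) over 5.78. In the ERG library it ran from 180835 to 181516, across the upper end of the record, with 21 (13.0 to 32.1) over 6.63. The peaks overlapped by 78 bp and their summits were 573 bp apart, against a median of 67 bp over the 8339 shared Vector-library peaks. They counted as shared by this narrow overlap, and did not when the overlap had to reach 50% of the shorter peak or the summits to lie within 500 bp. The ratio after depth was 0.661 (0.346 to 1.26), and its interval includes 1.

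The adult alpha genes HBA1 and HBA2, and HBZ and HBM, had no peak within 1 kb of their ends in either library. The nearest peak was that of HBQ1 for HBA1 (3.31 kb in the ERG library, 2.94 kb in the Vector library), for HBA2 (7.13 and 6.75 kb) and for HBM (14.1 and 13.7 kb). For HBZ it was an ERG-library peak beside NPRL3 at 13.5 kb, while in the Vector library the nearest was 26.0 kb away. At this depth the lists cannot show that these genes lacked acetylation.

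NPRL3, a subunit of a nutrient-sensing complex that restrains mTORC1 and a host of alpha enhancers, met 3 ERG-library peaks and had another just outside its record (85386 to 138673). Its start site at 138673, the base next to the promoter sequence shown above, lay between 2 of these peaks. One ran from 137679 to 138337 with 49 fragments (36.2 to 64.8) over 9.33, its edge 336 bp inside the gene. The next ran from 138740 to 139108 with 34 (23.6 to 47.5) over 9.16, its edge 67 bp before the start. Deeper in NPRL3, a peak at 113081 to 113409 stood 39.2 kb from HBZ, with 31 fragments (21.1 to 44.0) over 8.66. A wider and weaker one at 103873 to 104802 stood 47.8 kb away, with 18 (10.7 to 28.4) over 4.86. The positions of the named enhancers were not used here, so these distances are given as a description.

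The other neighbours showed both kinds of peak. MPG, a DNA repair glycosylase gene, had a start-site peak only in the ERG list, at 77642 to 78463 with 33 fragments (22.7 to 46.3) over 3.82. LUC7L, a splicing factor gene, had the strongest peaks of either locus, 85 fragments (67.9 to 105) for ERG at 228767 to 229531 and 51 (38.0 to 67.1) for Vector at 228819 to 229477. FAM234A, a membrane protein gene, had 63 (48.4 to 80.6) at 234773 to 235536 against 28 (18.6 to 40.5) at 234856 to 235345. Its inner peak, only in the ERG list, ran from 252288 to 253062 with 29 (19.4 to 41.6). The 2 windows hold 16 other protein-coding genes, of which LUC7L and FAM234A had end peaks in both lists, NPRL3 and MPG in the ERG list only, and 12 in neither.

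An end peak, within 1 kb of either end of the record, was found in both lists for 2 of the 10 globin genes (HBG2, HBQ1), in the ERG list only for 1 (HBB) and in neither for 7. The shares over 19866 protein-coding genes were 30.4% for both lists and 15.7% for the ERG list only. Peaks within 100 kb covered a median of 4053 bp per globin gene for ERG and 1272 bp for Vector, against 2305 and 739.5 bp over all protein-coding genes. The globin medians fall between the values of the loci. Each beta gene had 2833 bp for ERG and 944 bp for Vector, above 57.9% and 56.8% of all genes. Each alpha gene had 6095 and 1601 bp, above 86.45% and 74.4%, except HBQ1 with 5273 bp for ERG (81.75%). These alpha windows include the peaks at the neighbours NPRL3, LUC7L and FAM234A. With as many ERG-library as Vector-library peaks, taken from the top by score, HBG2 and HBQ1 had end peaks in the Vector list only, and HBB still in the ERG list only. Over all protein-coding genes, 3.69% then had an end peak in the Vector list only, 6.19% in the ERG list only and 27.1% in both. The genes of a cluster share their windows and are not independent.

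No Vector-library peak overlapped 10 of the 15 ERG-library peaks, 66.7% (38.4 to 88.2), while 0 of the 5 Vector-library peaks lacked an ERG-library one (0 to 52.2%). The same shares over the whole lists were 58.9% and 8.97%, inside those intervals. The intervals are wide and treat neighbouring peaks as independent, so they cannot show that the shares are alike. The numbers of unshared peaks are therefore not read as a trait of these loci. When the fragments and background of each ERG-library peak were divided by the relative depth and its p-value was recomputed, all 10 unshared peaks still passed the weakest p-value of the Vector list, as did 92.3% of all unshared ERG-library peaks. The unshared ones at the globin loci held 18 to 56 fragments, with a median of 33.5 against 27 over the whole list. With division by the median ratio at shared gene-end peaks instead, 2.16, 6 of the 10 passed, against 70.1% of all unshared ERG-library peaks: those at HBB and MPG, 3 in or beside NPRL3 and the highest one upstream of HBE1. The peaks in HBBP1, at 10.99 to 11.4 kb upstream of HBE1, at 47.8 kb from HBZ and inside FAM234A then fell short, as did the shared ones at HBQ1 and upstream of HBE1.

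The 3 shared peaks at or near globin genes had low ERG to Vector ratios among shared peaks. Over all 8339 shared Vector-library peaks this ratio had a median of 2.08, from 1.33 at the 10th to 3 at the 90th percentile. The ratio was 0.771 at HBG2, 0.955 (0.499 to 1.82) at HBQ1 and 1.06 (0.632 to 1.80) upstream of HBE1, and 0.336%, 1.62% and 3.21% of all shared peaks had a lower one. At the neighbours LUC7L and FAM234A it was 1.67 (1.16 to 2.41) and 2.25 (1.42 to 3.65), with 23.8% and 60.1% lower, inside the range from the 10th to the 90th percentile. All 3 intervals at the globin sites lay below the median of 2.08. Among the 4815 shared peaks of 22 to 51 Vector-library fragments, the span of all 5 shared peaks at the loci, the median was 2.11 and the shares lower were 0.436%, 1.48% and 2.85%. After depth, 2 of the 5 shared peaks were past 1.5-fold in favour of the Vector library (HBG2, HBQ1), as were 1.80% of all shared peaks. At HBQ1 the peaks overlapped by only 78 bp, with summits 573 bp apart, and the interval after depth (0.346 to 1.26) included 1. The ERG library exceeded by that fold at 1 of 5, FAM234A (1.56, 0.984 to 2.53), as it did at 45.0% of all. Scaled by 2.16 in place of 1.44, the ratio was 0.357 at HBG2, 0.443 at HBQ1 and 0.494 upstream of HBE1, the last then also past 1.5-fold. It was 0.773 at LUC7L and 1.04 (0.659 to 1.69) at FAM234A, which was then no longer past 1.5-fold. These percentages describe 2 libraries and no condition.

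**Figure D3:**
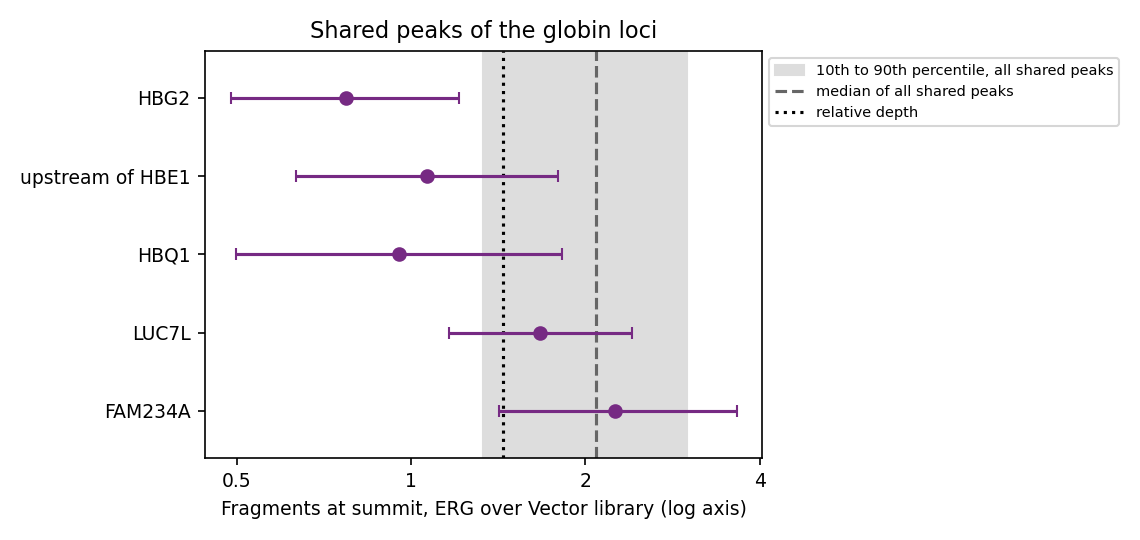
Ratio of fragments at the summit, ERG over Vector library, at the 5 shared peaks of the globin loci (points, log axis) with exact conditional 95% intervals. The grey band spans the 10th to the 90th percentile of all shared peaks (1.33 to 3), the dashed line is their median (2.08) and the dotted line the relative depth (1.44). HBG2, HBQ1 and the site upstream of HBE1 lie left of the band, and LUC7L and FAM234A inside it. The HBQ1 peaks of the libraries overlap by only 78 bp.

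The local background differed between the peaks of the 2 loci. It was highest upstream of HBE1 in the ERG library, at 7.36 and 6.64 times the genome level at the 2 unshared peaks. The shared peak there stood at 5.84 times, against a median of 3.36 over all ERG-library peaks. The other ERG-library peaks of the beta locus stood at 2.66 (HBB), 4.59 (HBBP1) and 4.53 (HBG2) times. The 2 Vector-library peaks of this locus stood at 5.05 (HBG2) and 5.66 times, against a median of 2.998. In the alpha locus the range was 1.65 to 4.13 for ERG and 2.74 to 3.61 for Vector. Across all peaks the background rose with the fragments (Pearson's r of the log values 0.817 over 19671 ERG-library peaks and 0.794 over 9161 Vector-library peaks, which share their library), and whether it includes acetylation of the surrounding region was not tested. From the Vector to the ERG library the background rose 1.30-fold at HBG2, 1.15-fold at HBQ1 and 1.49-fold upstream of HBE1, against 1.59 at LUC7L, 1.75 at FAM234A and a median of 1.98 over shared peaks. The part of the local background in the lower ratios was not tested.

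**Figure D4:**
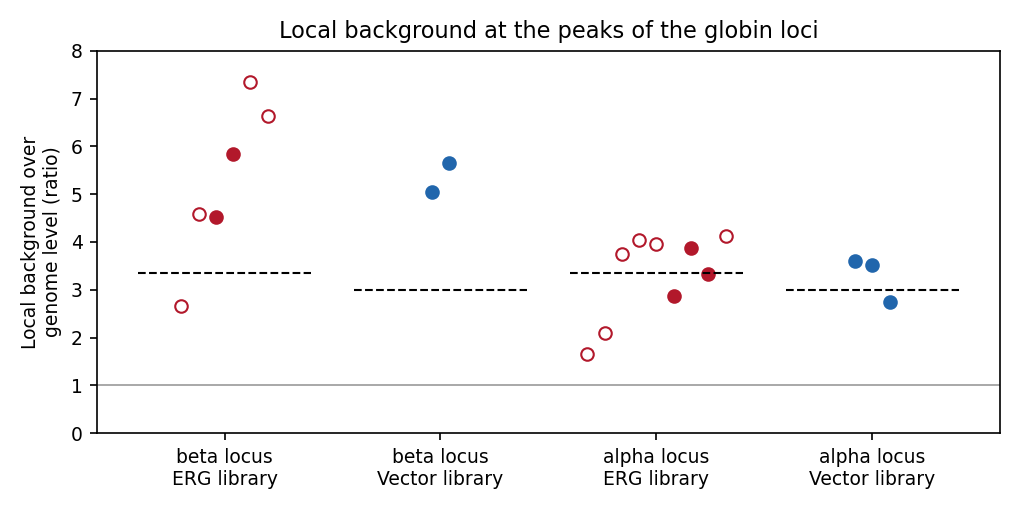
Local background at each of the 20 peaks as a ratio to the genome level of its library (y), by locus and library, with peaks in order of position within each group. Filled circles are shared and open circles unshared peaks, and dashed lines the median over all peaks of that library (3.36 and 2.998), with a grey line at the genome level. The 3 ERG-library peaks upstream of HBE1 stand highest, from 5.84 to 7.36.

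Most listed regulators of globin genes had end peaks. Of 23, both lists held one for 17, and the ERG list only for 2: LMO2, a bridging protein of the TAL1 complex, with 29 fragments, and RUNX1, a blood stem cell factor, with 50. The shares over all protein-coding genes were the 30.4% and 15.7% given above. With lists of equal length the counts became 11 in both, 0 in the ERG list only and 6 in the Vector list only (GATA2, NFE2, AHSP, ZBTB7A, NFIX and GATA1), against 27.1%, 6.19% and 3.69% of all genes, so LMO2 and RUNX1 no longer had one. The ERG list was cut by score there, so a place in the Vector list only does not by itself mean fewer ERG-library fragments. Between overlapping end peaks of the full lists, the ratio after depth was 1.94 at GATA2 (140 against 50 fragments), 1.32 at NFE2, 1.22 at NFIX and 0.430 at AHSP. The end peaks of ZBTB7A and GATA1 did not overlap. In the full lists, the remaining 4 had none, among them BCL11A, the repressor of fetal globin, which had one in the ERG list only when the distance was widened to 2.5 kb. In 15 of the 17 the end peaks of the libraries overlapped, and the ratio after depth there had a median of 1.60, against 1.44 over all shared peaks and 1.49 over those at gene ends. It ran from 0.934 at KLF1, the activator of HBB, to 2.33 at ATRX, with AHSP as the exception. KLF1 had 2 end peaks in each library. Its ratio is for an overlapping pair of 62 and 46 fragments, and not for its strongest ERG-library end peak, which had 72. AHSP encodes the chaperone of free alpha globin. The choice of AHSP, BCL11A, KLF1 and ATRX for mention was made with their values in view. AHSP had 18 fragments in the ERG library (31528466 to 31529144 on chromosome 16) against 29 in the Vector library (31528161 to 31528605), a ratio after depth of 0.430 (0.225 to 0.801), with 0.0720% of shared peaks lower. Its summits were 708 bp apart. MB, CYGB and NGB, globins of other tissues, had no end peak in either library.

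Markers of the labelled cell type were checked in the same way. Of 8 erythroid markers, 6 had end peaks in both lists, ALAS2 (erythroid heme synthesis) only in that of ERG and SLC4A1 (the red cell anion exchanger) in neither. Both lists held one for 2 of 5 megakaryocyte and 1 of 5 myeloid genes, and only that of ERG for MPO (myeloid) and CD79A (1 of 3 lymphoid). These counts stand beside 30.4% of all protein-coding genes for both lists and 15.7% for the ERG list only. In the 5 erythroid markers whose end peaks overlapped, the ratio after depth had a median of 1.18 and was lowest at AHSP (0.430), and AHSP and KLF1 belong to the regulator list too. All 3 stem and progenitor and all 3 neuronal markers had none. The part of cell type markers in the globin values was not tested.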

How the data were processed

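H3K27ac was measured in 2 F36P libraries, ERG and Vector, 1 per group, grouped by GEO's labels. Bowtie2, MACS2, deepTools and the build hg38 are named, without versions, per the submitters' processing notes. The sources used here do not say whether an input library was used. Each deposited list of 10 columns covers a single library. It holds the authors' score, the authors' fold over local background, and, for each peak, the −log10 of its p-value and q-value as deposited. Whole fragment numbers solving the fold and p-value were found for 100% of peaks in both libraries (relative error under 0.00001). On 3000 simulated peaks per library, made with the same formulas, 100% were recovered. Relative depth was the ratio of the lowest backgrounds. Read totals are unknown. Peaks overlapping by at least 1 bp were shared. Gene ends were 1 kb either side of both ends of the RefSeq record (GRCh38.p14), without exons. Intervals are exact (Poisson, Clopper-Pearson and conditional, 95%). The 1.5-fold threshold, windows and most alternatives were fixed in a plan. All globin genes were named, the neighbours with a peak, and the regulators with an end peak in 1 library alone. Members and lists were chosen with earlier results of these data known. Calculations used Python 3.11.15, numpy 2.4.6, pandas 2.3.3, scipy 1.17.1 and matplotlib 3.10.9.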

Additional observations from a re-analysis of the deposited data

How the results depend on the processing

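Of 81 recalculations, 49 stayed within 1.5 times the reported count or length, or within its interval, and 32 moved further. The direction changed at LUC7L, which was under the 1.5-fold threshold both ways, and at 0 of the ratios past it. Among the 50% of peaks with the higher scores in each library, the beta locus held 2 ERG-library peaks (1307 bp) and 1 Vector-library peak (585 bp), the alpha locus 4 ERG-library peaks (3010 bp), 4 ERG-library and 1 Vector-library peaks were unshared, and 0 globin genes kept end peaks in both. In this setting, added for the regulators after seeing the data, 10 regulators had end peaks in both and 1 (ATRX) in the ERG library alone. With as many ERG-library peaks as Vector-library peaks, taken from the top by score, the beta locus held 2 ERG-library peaks (1307 bp) and the alpha locus 4 (3010 bp), 4 ERG-library and 3 Vector-library peaks were unshared, 0 globin genes and 11 regulators had an end peak in both and 0 regulators in the ERG library alone. With the ERG library thinned by the ratio at gene-end peaks, an alternative chosen after seeing the data, the beta locus held 3 ERG-library peaks (1778 bp), the alpha locus 3708 bp, 6 ERG-library and 2 Vector-library peaks were unshared, and 1 globin gene had an end peak in both and 1 regulator in the ERG library alone. A window of 50 kb left 3734 bp of ERG-library peaks at the alpha locus, and one of 200 kb gave 14 peaks. An overlap of 50% of the shorter peak, or summits within 500 bp, left 1 Vector-library peak, at HBQ1, unshared. Scaled by the ratio at gene-end peaks, the log2 ratio at LUC7L was -0.37 in place of 0.21, and the ratio upstream of HBE1 passed the 1.5-fold threshold in favour of the Vector library (0.494). The ratio at FAM234A then no longer passed it in favour of the ERG library (1.04). HBB kept its end peak in the ERG library alone under all 6 alternatives run for gene ends. A start-site version of the gene-end count was not run for the globin genes, since RefSeq windows were matched for HBD and HBM alone. No paired analysis was possible because each group held 1 library. The cause of these differences was not tested.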
